A study of Mus musculus with 14 samples.

Results

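The data compared bone marrow cells of mice that carried an instigating tumour with the same cells of mice that carried Matrigel alone. The members were chosen by array title and cover 9 of the 14 arrays of the series, 5 titled Instigator and 4 titled Matrigel. The marrow cells were sorted by flow cytometry to carry Sca1, a surface antigen of stem and immune cells, and to lack cKit, the stem cell factor receptor, and 1 biotin-labelled RNA sample was hybridised to each Affymetrix mouse array. The Instigator mice bore tumours of BPLER, a transformed human mammary epithelial line, and the Matrigel mice received the basement membrane extract that served as the tumour-free control. The other 5 arrays, titled Non-instigator, came from mice with size-matched tumours of PC3, a human prostate carcinoma line, and were used to share the estimate of spread and as a second tumour group. The sources used here give neither the host strain, and so which lymphocytes it could make, nor its age. No label says that each array is a different animal, so every p-value here measures only how far these samples spread, which may be technical. The array titled Instigator 5 names BPLER as its source but PC3 in its description, and its title decided its group here.

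Some tumours, called instigating, make indolent tumour cells elsewhere in the same host grow out, and marrow cells mobilised by the tumour are one route by which they can act. The Sca1-positive, cKit-negative fraction of mouse marrow is not a single cell type. It holds lymphoid and dendritic cells, some granulocyte precursors and a small share of stromal cells, so its profile reflects both which cells were sorted and what each expressed. In such bulk samples, fewer cells of a type and less RNA per cell cannot be told apart. Ly6a, the gene of Sca1, is not analysed here, since no probe set names it without another gene, while Kit is described with its values below.

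Arrays 4 of the Instigator group and 3 of the Matrigel group stood apart. The actin control signal from the 5' end of the transcript lay -3.41 log2 units from that of the 3' end on Instigator 4, where the other 13 arrays gave -0.81 to -0.51. Matrigel 3 had the highest median log2 intensity, 7.18, against 6.90 to 7.01 elsewhere. Results are therefore given with all 9 arrays and again without these 2. All levels are log2 intensities from 1 probe set per gene, the brightest, and all differences are log2 differences, Instigator minus Matrigel, where 1 is a doubling. No gene's level is set against another gene's.

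With all arrays, 0 of 22626 probe sets were called by limma at an adjusted p under 0.05 (0% of those tested, smallest adjusted p = 0.439). At an unadjusted p under 0.05, 740 probe sets lay higher in Instigator arrays (3.27%) and 1584 lower (7%), a split that became 1298 higher and 1198 lower with quantile normalization and 1772 and 961 after centring every array on its own median. Over the 12393 genes, 450 lay higher (3.63%) and 640 lower (5.16%) at that unadjusted threshold. Without Instigator 4 and Matrigel 3 these shares of genes were 3.72% higher and 2.6% lower. The 2 groups of arrays did not overlap for 230 probe sets above (1.02%) and 379 below (1.68%), or for 139 genes above (1.12%) and 150 below (1.21%). These shares are the background against which the counts below are read. Since no gene passed the adjusted test, each gene is described as lying higher or lower, and with all arrays the adjusted p of each gene named below was at least 0.439 by limma.

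Most B lineage, plasma cell, T cell and antigen-presenting genes lay lower in the marrow cells of Instigator than of Matrigel mice. Neutrophil granule, replication, glycolysis and tRNA synthetase genes lay higher. Across 8 lists of dendritic cell, MHC class II, B lineage, plasma cell and T cell genes, 98 of 118 measured genes were lower (83.1%), with a median log2 difference of -0.25. Over all genes 54.1% were lower and the median was -0.02. The NK cell list is not among these 8 lists and had a median of -0.05, with 14 of 18 genes lower. Of those 118 genes, 30 were lower at an unadjusted p under 0.05 (25.4%), 0 were higher at it, and for 10 the groups did not overlap. Without Instigator 4 and Matrigel 3 the median of the 118 genes was -0.26, with 99 lower, but 13 were lower and 2 higher at an unadjusted p under 0.05. Over all genes, 2.6% were lower and 3.72% higher at that threshold without those arrays. The 2 lists of neutrophil granule genes had 21 of 23 genes higher, with a median of 0.23 in both settings. The 4 lists of replication, nucleotide synthesis and mitosis genes had 61 of 98 higher with all arrays (median 0.09) and 77 of 98 without those 2 arrays (median 0.10), when 59.0% of all genes lay higher. These lists were chosen with earlier results of the same arrays known, so their counts describe the data and do not test it.

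**Figure D1:**
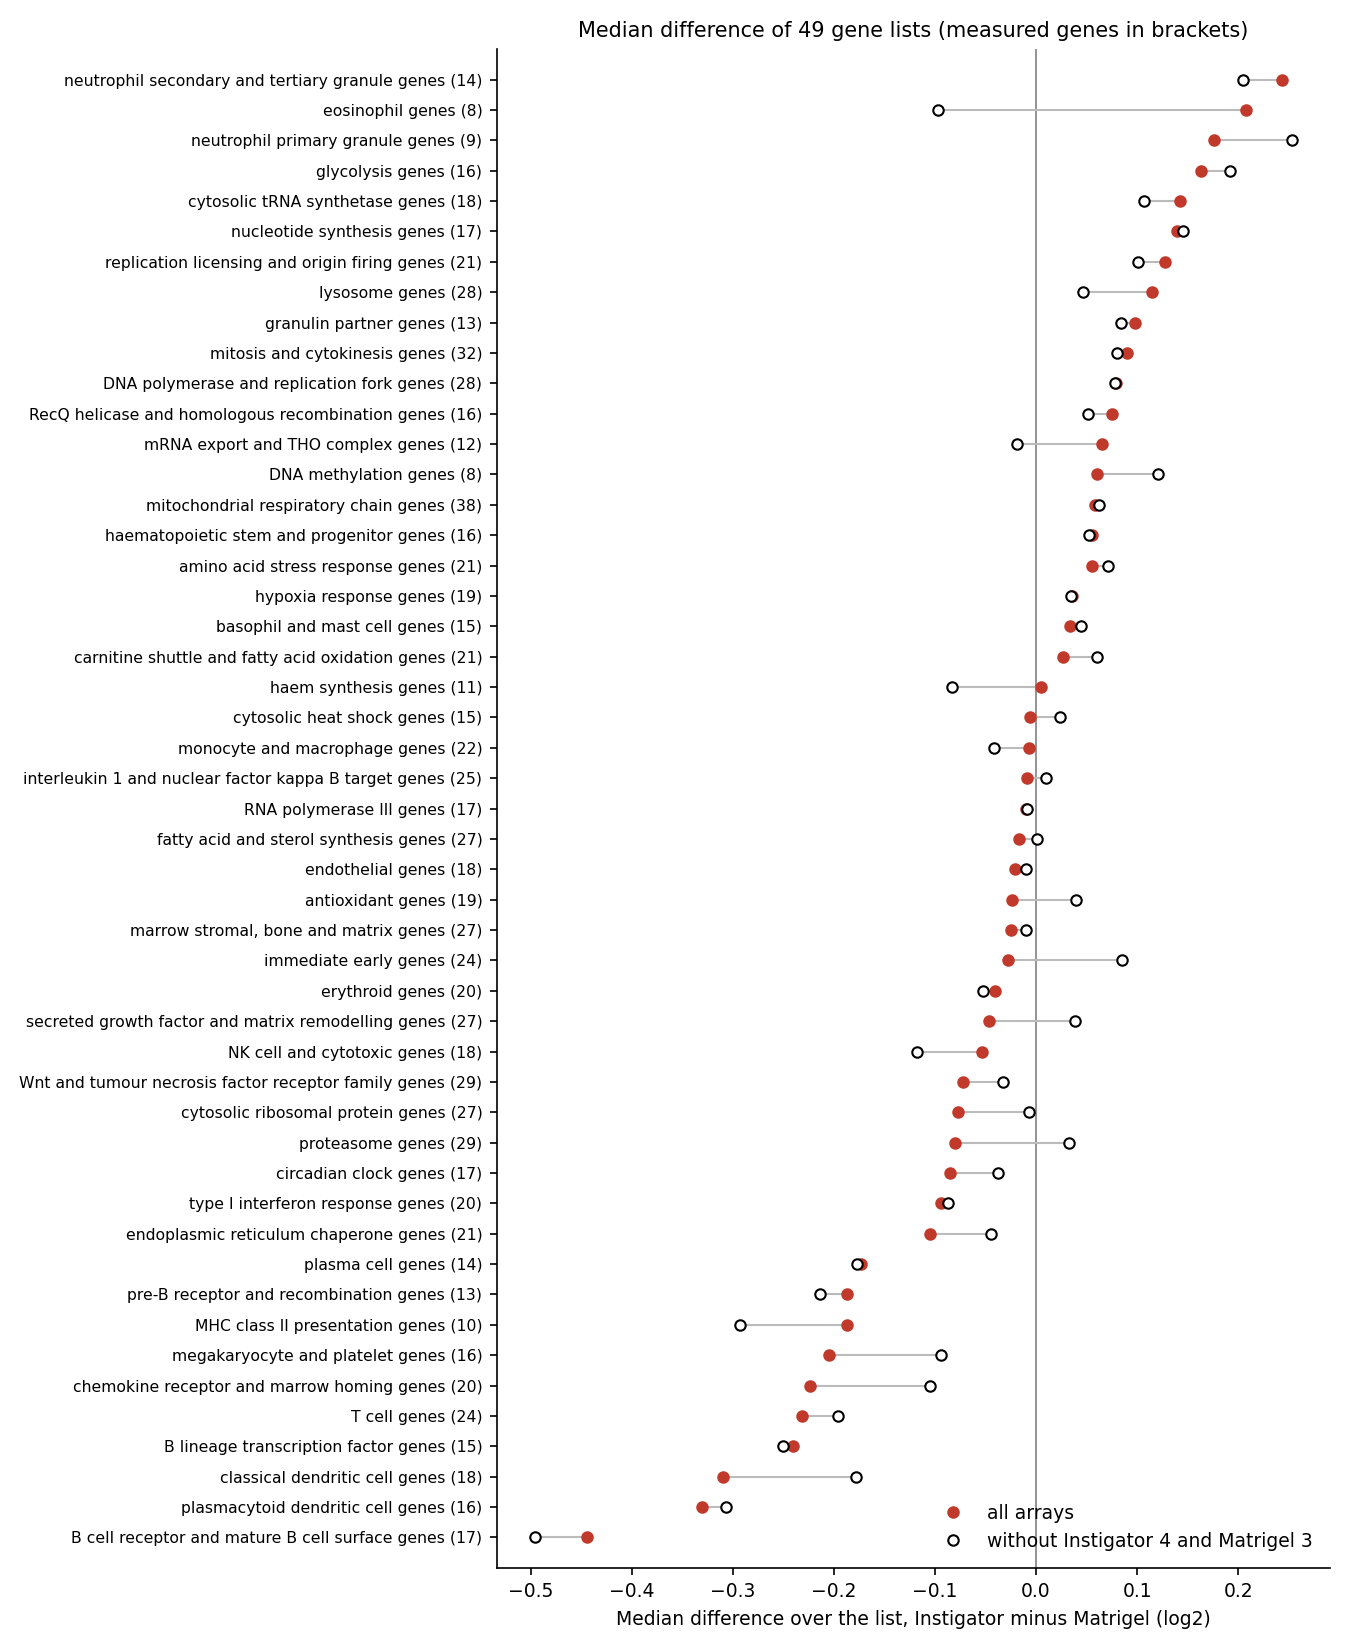
Each row is 1 gene list with its number of measured genes in brackets, and the horizontal axis is the median log2 difference over the list, Instigator minus Matrigel, for all arrays (filled) and without Instigator 4 and Matrigel 3 (open). B cell receptor genes lie lowest at -0.44 and secondary granule genes highest at 0.24, while the eosinophil list moves from 0.21 to -0.10.

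Most measured B lineage genes lay lower, on the pre-B list as on the lists of mature B cells. B cells mature in the marrow from precursors that display a surrogate light chain with the heavy chain, through rearrangement of the immunoglobulin genes, to cells that carry the B cell receptor and its signalling chains. Igll1, the lambda-like chain of that surrogate light chain, measured 10.06, 9.92, 10.75 and 9.94 on the 4 Matrigel arrays in order of their number. It measured 9.32, 9.45, 9.01, 8.90 and 9.75 on the 5 Instigator arrays. Every Instigator array lay below every Matrigel array, by a mean difference of -0.88 (SE 0.24, 1.84-fold, 95% confidence interval -1.39 to -0.38), and by -0.59 without the 2 arrays that stood apart. The mean of its 2 probe sets differed by -0.58. The dimmer set differed by -0.28 (SE 0.24), with Instigator 5 at 8.85 above every Matrigel array. Vpreb3, another protein of the pre-B cell receptor pathway, also separated the groups, with 7.94 to 8.89 in Matrigel and 7.35 to 7.93 in Instigator arrays (difference -0.54, SE 0.22). The transcription factor Sox4, needed for early B cell development, lay between 8.93 and 9.43 in Matrigel arrays and between 8.26 and 8.89 in Instigator arrays (difference -0.53, SE 0.15), and its gap was -0.62 without the 2 arrays and -0.34 as the mean of its 6 probe sets. For these 3 of the 13 measured pre-B genes the groups did not overlap, and 9 of the 13 were lower and 4 higher. The median of -0.19 was -0.06 without Instigator 3 and -0.07 without Matrigel 1.

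Genes of mature B cells followed the same direction with more overlap. Of 17 measured genes of the B cell receptor and the mature B cell surface, 14 were lower, with a median of -0.44 (-0.50 without the 2 arrays). The receptor's signalling chains Cd79a and Cd79b differed by -0.65 (SE 0.30) and -0.69 (SE 0.28), and the surface antigen Ms4a1 (CD20) by -0.73 (SE 0.36). For each of these 3 genes the groups overlapped, because Matrigel 4 was the lowest of its group and Instigator 2 or Instigator 4 reached its level. Tnfrsf13b (TACI), a receptor for B cell survival factors, did not overlap: it lay at 9.80, 9.61, 9.87 and 9.52 on Matrigel arrays and at 9.18, 9.40, 9.27, 8.70 and 9.34 on Instigator arrays (difference -0.53, SE 0.14). Among 15 transcription factors of the lineage 11 were lower, with a median of -0.24, and 3 separated the groups. Mef2c was lower by -0.44 (SE 0.15) at its brightest set. Its other sets were also lower but overlapped. At the next brightest (difference -0.58, SE 0.29) Instigator 5, at 10.40, lay above every Matrigel array. Pou2af1, the octamer coactivator of B cells, lay at 10.84 to 10.86 on 3 Matrigel arrays and higher on Matrigel 3, but lay at 9.92 to 10.82 on Instigator arrays.

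Spib, an Ets family factor shared by B cells and plasmacytoid dendritic cells, measured 11.07, 11.71, 11.02 and 11.06 on Matrigel arrays. On Instigator arrays it measured 10.59, 10.93, 10.13, 9.77 and 10.80. All 5 lay below the lowest Matrigel value, by a mean of -0.77 (SE 0.28, 1.71-fold) and of -0.67 without the 2 arrays.

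Most immunoglobulin probe sets and the plasma cell genes also lay lower, with wide spread between arrays. Of 38 immunoglobulin probe sets, which stand for 19 genes and share sequence with one another, 29 were lower, with a median difference of -0.39 and 8 at an unadjusted p under 0.05. The median was -0.17 with 23 lower without Instigator 4 and Matrigel 3. Sets of the IgM heavy chain went both ways, from -0.91 (SE 0.51) to 0.33 (SE 0.71), with more of them higher than lower. Iglv1, a lambda variable segment whose probe set can also match related segments, had the largest difference of the genes named here. It measured 11.40, 11.37, 12.62 and 11.72 on Matrigel arrays and 10.21, 10.27, 9.19, 8.23 and 11.10 on Instigator arrays. The difference was -1.97 (SE 0.50) with all arrays and -1.30 without the 2 arrays, which were the highest Matrigel and the lowest Instigator array. Its dimmer probe set differed by -0.91 (SE 0.35). All 14 measured plasma cell genes were lower with a median of -0.17, including Tnfrsf17, the survival receptor BCMA, at -0.63 (SE 0.26), and Derl3, a factor of endoplasmic reticulum degradation, at -0.49 (SE 0.32). The median was -0.30 without Matrigel 2 and -0.12 without Matrigel 3, and without both arrays that stood apart 13 of the 14 were lower. On Instigator 5 Tnfrsf17 lay at 7.66, inside the Matrigel range, against 6.82 to 6.95 on the other 4 Instigator arrays.

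Most genes on the 2 dendritic cell lists were lower. Several of them, such as Spib, Irf4, Cd83 and Ccr7, also stand on the B lineage or T cell lists. The lists therefore do not show a change particular to dendritic cells. Classical dendritic cells present antigen to T cells, and plasmacytoid dendritic cells sense nucleic acids and make type I interferon. Of 18 classical genes 15 were lower, with a median of -0.31 and 8 at an unadjusted p under 0.05, and of 16 plasmacytoid genes 13 were lower, with a median of -0.33 and 7 at that threshold. Without Instigator 4 and Matrigel 3 the classical median was -0.18, with 4 genes lower at that threshold, and the plasmacytoid median -0.31, with 3. Cd209a, a C-type lectin of monocyte-derived dendritic cells, measured 6.87, 7.85, 6.90 and 6.69 on Matrigel arrays and 6.17, 6.55, 5.27, 5.83 and 6.03 on Instigator arrays. The groups did not overlap, and the difference of -1.11 (SE 0.33, 2.15-fold) was -1.13 without the 2 arrays. Its paralog Cd209d differed by -0.95 (SE 0.35) with overlapping groups, and the 2 probe sets may share target sequence. Slamf9, a surface receptor of the SLAM family, lay at 7.54 to 8.60 on Matrigel and 6.33 to 7.44 on Instigator arrays (difference -1.13, SE 0.29). The chemokine receptor Xcr1, which defines cross-presenting dendritic cells, was dim, at 5.12 to 5.44 and 4.88 to 5.07, with no overlap (difference -0.27, SE 0.08). Clec10a, a lectin of classical dendritic cells, differed by -0.39 (SE 0.15), with Instigator 2 at 8.35 inside the Matrigel range and the other 4 Instigator arrays at 7.71 to 7.78.

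Among the plasmacytoid genes, Tcf4, the factor that sets the identity of these cells, lay at 10.99 to 11.36 on Matrigel and 10.22 to 11.15 on Instigator arrays (difference -0.62, SE 0.21). Tlr7, a sensor of single-stranded RNA, differed by -0.59 (SE 0.19) and Ccr9, a receptor that guides these cells to the gut, by -0.66 (SE 0.26), with Instigator 5 inside the Matrigel range for Tlr7 and Instigator 2 for Ccr9. The means of their 3 probe sets differed by -0.27 and -0.43. MHC class II genes, which B cells and dendritic cells share, were lower for 9 of 10 measured members, with a median of -0.19 and of -0.29 with all 10 lower without the 2 arrays. The alpha chain H2-Aa measured 11.38, 11.73, 11.57 and 11.12 on Matrigel arrays and 10.71, 11.29, 10.16, 10.10 and 11.08 on Instigator arrays (difference -0.78, SE 0.30). The invariant chain Cd74 differed by -0.68 (SE 0.29) and the peptide exchange chain H2-DMb2 by -0.52 (SE 0.19), and H2-Ab1 by -0.45 (SE 0.34). Instigator 2 lay inside the Matrigel range for each of these 4 genes, and Instigator 4 did so for H2-Ab1.

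T cell genes were lower for 21 of 24 measured members, by a median of -0.23 (-0.20 without the 2 arrays), though 3 reached an unadjusted p under 0.05 and for 0 of them did the groups separate. Cd4, the coreceptor of helper T cells, differed by -0.50 (SE 0.18) and by -0.25 as the mean of its 2 probe sets, Cd28, the costimulatory receptor, by -0.61 (SE 0.31), and the T cell receptor zeta chain Cd247 by -0.39 (SE 0.17). Ccr7, the receptor that guides T cells and dendritic cells to lymph nodes, differed by -0.66 (SE 0.31). Lef1, a factor of T and pre-B cells, lay at 5.32 to 5.38 on 3 Matrigel arrays and 6.10 on Matrigel 3, and its difference was -0.24 with that array and -0.06 without both arrays that stood apart. For NK cells 14 of 18 genes lay lower, by a median of -0.05 that was 0.02 after centring every array and lay between -0.13 (without Instigator 4) and 0.02 (without Instigator 3) with 1 array left out. Without Instigator 4 and Matrigel 3 it was -0.12, with 16 of 18 lower.

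The lower levels were not even across the Instigator arrays. Instigator 3 was the lowest Instigator array for 62 of the 118 lymphoid and dendritic genes (52.5%), against 20.4% of all genes, and Matrigel 4 was the lowest Matrigel array for 43.2% of them, against 22.8%. For the B cell receptor list the mean level was 8.07 on Instigator 3, against 8.75 on Matrigel 4 and 9.22 on Matrigel 2. Leaving out Instigator 3 gave a median of -0.35 for the B cell receptor list, -0.23 for the classical and -0.28 for the plasmacytoid dendritic list, -0.13 for MHC class II and -0.15 for T cells. Leaving out Matrigel 4 gave -0.58 for the B cell receptor list, and leaving out Matrigel 3 gave -0.21 for the classical dendritic list and -0.12 for T cells. The direction was the same without any 1 of the 9 arrays for each of these 5 lists. Instigator 3 had 5' minus 3' control values inside the range of the other arrays.

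**Figure D2:**
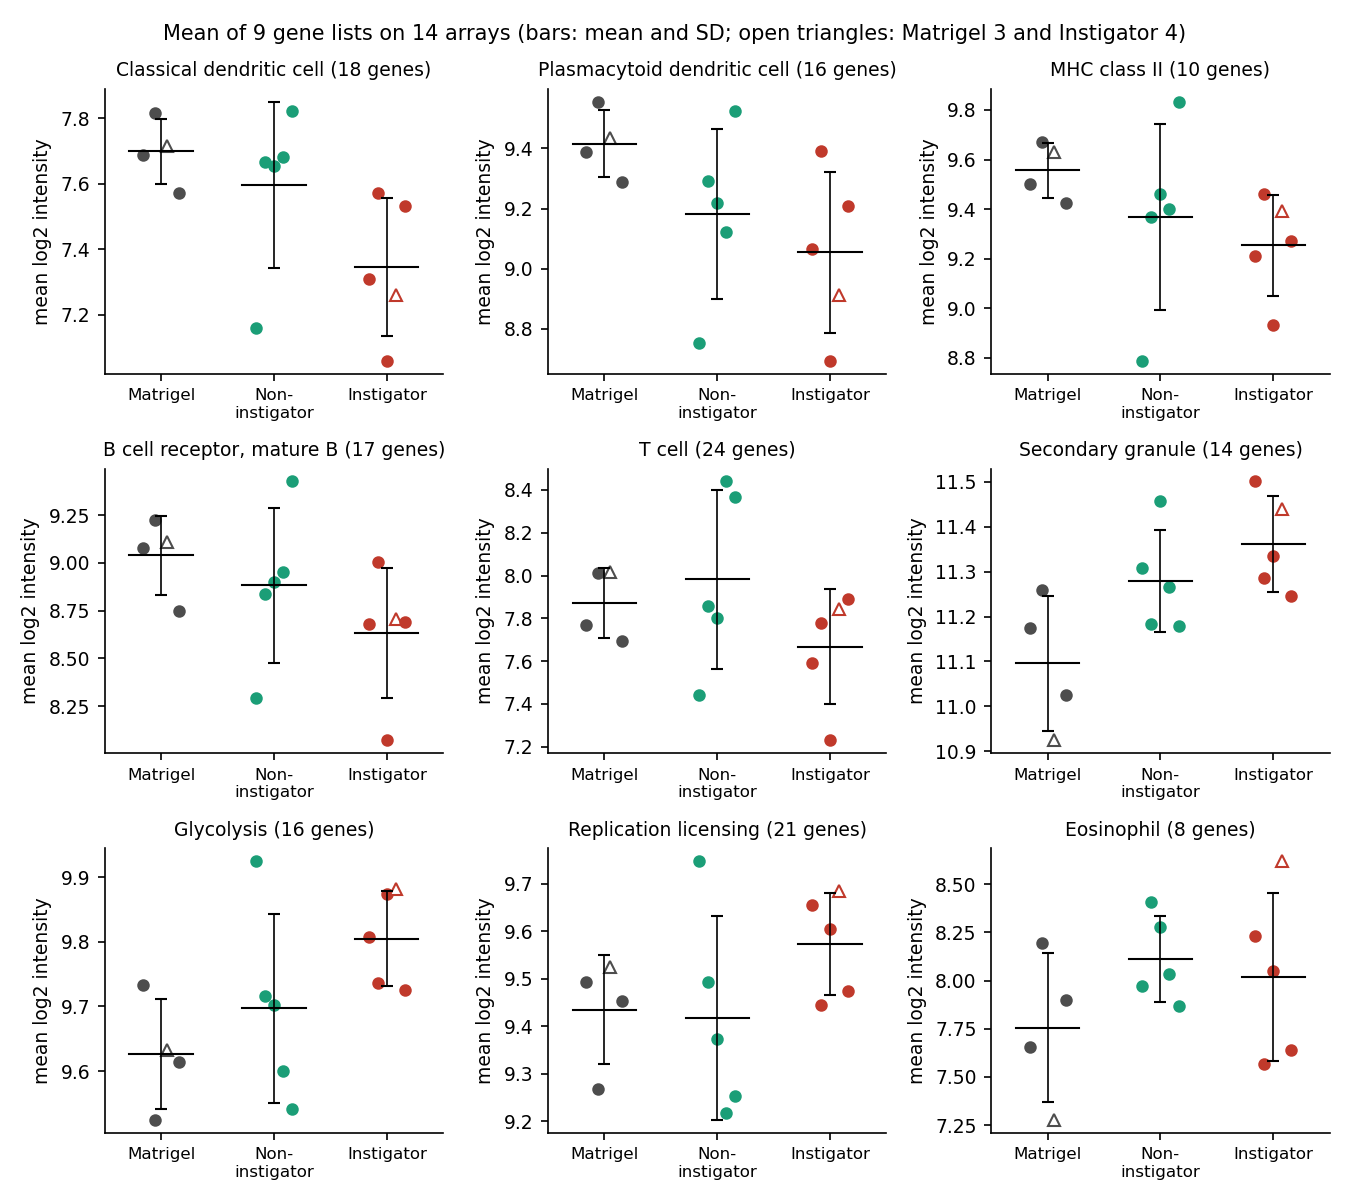
Each panel plots the mean log2 intensity of 1 gene list on each of the 14 arrays, by group, with the group mean and SD as bars and Matrigel 3 and Instigator 4 as open triangles. Instigator 3 is the lowest Instigator array in the 5 lymphoid and dendritic panels, and the Instigator arrays of the glycolysis list run from 9.73 to 9.88 against 9.52 to 9.73 in Matrigel.

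**Figure D3:**
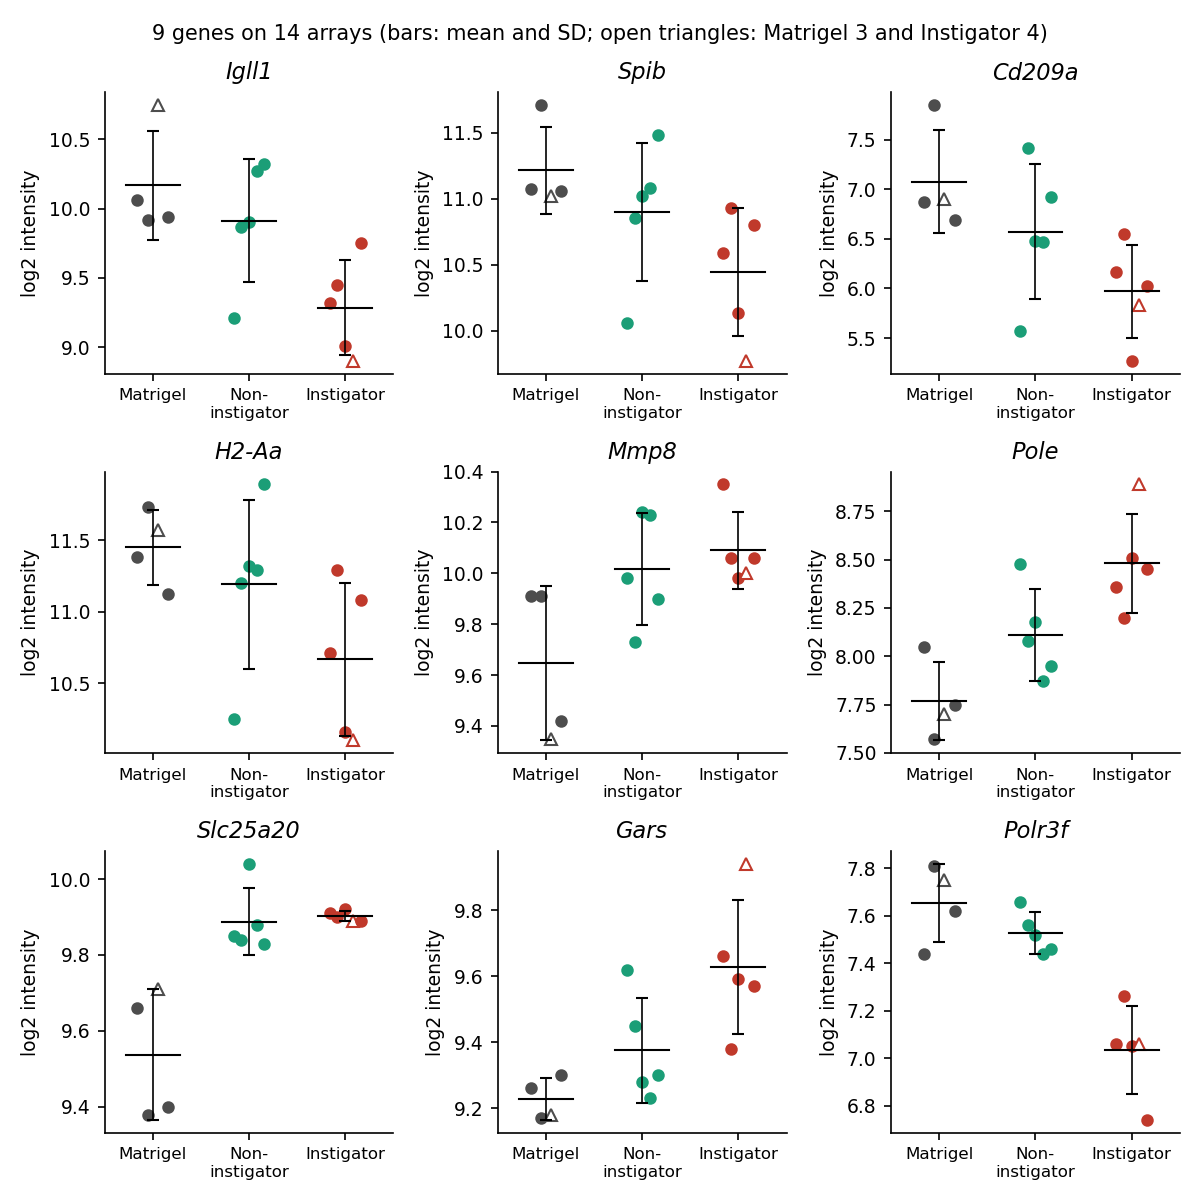
Each panel plots the log2 intensity of 1 gene on each of the 14 arrays, by group, with the group mean and SD as bars and Matrigel 3 and Instigator 4 as open triangles. The Instigator and Matrigel arrays do not overlap for Igll1, Spib, Cd209a, Mmp8, Pole, Slc25a20, Gars and Polr3f, and they overlap for H2-Aa.

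Neutrophil granule genes lay higher. Neutrophil precursors fill primary granules with myeloperoxidase and serine proteases first and secondary and tertiary granules with lactoferrin and collagenases later. Of 14 measured secondary and tertiary granule genes 13 were higher, with a median of 0.24 and 7 at an unadjusted p under 0.05, and without the 2 arrays all 14 were higher with a median of 0.20 and 2 at that threshold. Mmp8, neutrophil collagenase, measured 9.91, 9.91, 9.35 and 9.42 on Matrigel arrays and on Instigator arrays 10.35 at the highest, 10.06 at the median and 9.98 at the lowest. It was the 1 member whose groups did not overlap, with a difference of 0.44 (SE 0.14) and of 0.36 without the 2 arrays. Ltf, lactoferrin, differed by 0.43 (SE 0.17), and Matrigel 3 at 11.22 stood below the other 3 Matrigel arrays, and the difference was 0.21 without that array. The granule protein Ngp differed by 0.23 (SE 0.09), the calcium-binding alarmin S100a8 by 0.20 (SE 0.08) and the neutrophil integrin Itgb2l by 0.32 (SE 0.11). Il1r2, the decoy receptor for interleukin 1, differed by 0.68 (SE 0.20), with Instigator 3 at 6.91 inside the Matrigel range of 6.56 to 7.03.

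Primary granule genes were higher for 8 of 9 measured members, with a median of 0.18 (0.25 and 9 of 9 without the 2 arrays), and 0 reached an unadjusted p under 0.05 with all arrays. Mpo, myeloperoxidase, differed by 0.09 (SE 0.12) and Ms4a3, a membrane protein of granulocyte and monocyte precursors, by 0.35 (SE 0.26). The median of this list was 0.03 without Matrigel 2, the array with the lowest mean of its group. Rnase2a, a ribonuclease of the eosinophil granule family whose close paralogs may share its probes, measured 7.69, 7.83, 8.21 and 8.53 on Matrigel arrays and 8.73, 9.05, 9.01, 9.30 and 8.65 on Instigator arrays. Its groups did not overlap, and the difference was 0.88 (SE 0.28, 1.84-fold) with all arrays and 0.84 without the 2. The eosinophil list of 8 genes did not hold one direction and had a median of 0.21 with all arrays and -0.10 without Instigator 4 and Matrigel 3, its highest and lowest arrays. Hdc, the histamine-forming decarboxylase of basophils and mast cells, differed by 0.66 (SE 0.25), by 0.29 without the 2 arrays and by 0.35 as the mean of its 2 probe sets. Monocyte and macrophage genes split evenly, with 11 of 22 higher and a median of -0.01 that was 0.07 after centring.

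Several replication genes lay higher, and Pole separated the groups. Origins of replication are licensed when Cdc6 and Cdt1 load the Mcm2 to Mcm7 helicase, and polymerase epsilon then copies the leading strand. Pole, the catalytic subunit of that polymerase, measured 8.05, 7.57, 7.70 and 7.75 on Matrigel arrays and 8.36, 8.2, 8.51, 8.89 and 8.45 on Instigator arrays. The difference was 0.71 (SE 0.15, 1.64-fold, 95% confidence interval 0.39 to 1.03) and 0.59 without the 2 arrays. Cdt1 measured 10.40, 9.71, 9.66 and 9.96 on Matrigel arrays and 10.45, 10.30, 10.70, 11.08 and 10.54 on Instigator arrays. Only Instigator 2 lay inside the Matrigel range of Cdt1, and the difference was 0.68 (SE 0.18), or 0.47 without the 2 arrays and 0.43 as the mean of its 3 probe sets. Mcm2, a helicase subunit, differed by 0.56 (SE 0.23), with Instigator 4 at 10.68, by 0.36 without that array and by 0.34 as the mean of its 2 probe sets. Cdc6 differed by 0.52 (SE 0.22), the flap endonuclease Fen1 by 0.34 (SE 0.12) and the DNA ligase Lig1 by 0.26 (SE 0.12). Dnmt1, which copies DNA methylation onto the new strand, measured 11.72, 11.33, 11.38 and 11.36 on Matrigel arrays and 11.93, 11.70, 12.04, 12.14 and 11.86 on Instigator arrays (difference 0.49, SE 0.11), where Instigator 2 lay just under Matrigel 1. Its brightest probe set and that of Fen1 carry the x_at suffix, which marks probes that match further transcripts, and the other Dnmt1 set differed by 0.31 (SE 0.15).

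Over the whole lists, 13 of 21 licensing genes, 16 of 28 polymerase and fork genes, 11 of 17 nucleotide synthesis genes and 21 of 32 mitosis genes were higher, with medians of 0.13, 0.08, 0.14 and 0.09. At an unadjusted p under 0.05, 11 of the 98 genes of these 4 lists were higher (11.2%) and 2 lower (2.04%). Matrigel 2 was the lowest Matrigel array for 53.1% of them, against 24.7% of all genes. Without it the medians of the licensing, fork, nucleotide and mitosis lists were 0.02, 0.01, 0.07 and 0.06, while Pole differed by at least 0.61 without any 1 array.

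The promoters of the replication genes were read because replication genes are known targets of E2F factors. Promoter windows of 300 bases, from 250 before to 50 after each RefSeq start in GRCm38.p6, were searched on both strands for 4 E2F words, TTTCCCGC, TTTCGCGC, TTTGCCGC and TTTGGCGC. Of 49 measured licensing, polymerase and fork genes 41 have a window, and 15 of these 41 (36.6%) hold a word, against 2.6% of 27025 genes with a window and 1 of 27 mitosis genes (3.7%). The 15 genes with a word had a median log2 difference of 0.09 and the 26 without one had a median of 0.11. The windows of Cdt1 (chr8:122567765-122568064 on the plus strand), Cdc6 (chr11:98907901-98908200 on the plus strand) and Dnmt1 (chr9:20952574-20952873 on the minus strand, 1 of its 3 windows and the only one with a word) are shown 5' to 3' with the words in capitals, since these 3 genes are described above.
Cdt1: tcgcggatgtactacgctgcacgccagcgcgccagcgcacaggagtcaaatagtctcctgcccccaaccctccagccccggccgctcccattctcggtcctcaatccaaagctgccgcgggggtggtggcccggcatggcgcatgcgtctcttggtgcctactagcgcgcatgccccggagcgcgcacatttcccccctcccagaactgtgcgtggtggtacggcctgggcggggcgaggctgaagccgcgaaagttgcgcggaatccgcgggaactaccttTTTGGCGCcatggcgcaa
Cdc6: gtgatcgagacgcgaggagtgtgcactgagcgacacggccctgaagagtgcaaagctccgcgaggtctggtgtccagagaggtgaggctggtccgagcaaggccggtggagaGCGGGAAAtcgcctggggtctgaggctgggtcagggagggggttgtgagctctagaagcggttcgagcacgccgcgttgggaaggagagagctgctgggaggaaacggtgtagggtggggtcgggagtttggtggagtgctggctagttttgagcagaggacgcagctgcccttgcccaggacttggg
Dnmt1: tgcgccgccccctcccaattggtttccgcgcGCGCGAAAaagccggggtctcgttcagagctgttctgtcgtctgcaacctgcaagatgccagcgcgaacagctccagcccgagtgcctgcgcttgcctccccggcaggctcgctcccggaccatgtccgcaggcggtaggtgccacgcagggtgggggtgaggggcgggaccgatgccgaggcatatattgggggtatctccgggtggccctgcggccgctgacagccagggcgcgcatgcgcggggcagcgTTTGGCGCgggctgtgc
The Cdt1 word and the second Dnmt1 word lie in the 50 bases after the start, and the Cdc6 word lies before it. A match is a match of letters and not evidence of binding.

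Glycolysis genes lay higher, with 13 of 16 members above 0, a median of 0.16 and 3 genes whose groups did not overlap. The median was 0.19 without the 2 arrays, and it stayed between 0.13 and 0.21 without any 1 of the 9 arrays. Hk1, the hexokinase that phosphorylates glucose on entry, measured 7.46, 7.33, 7.06 and 7.26 on Matrigel arrays and 7.75, 7.67, 7.52, 8.80 and 7.58 on Instigator arrays. Instigator 4 stood well above the rest, and the difference of 0.59 (SE 0.21) was 0.28 without the 2 arrays and 0.25 as the mean of its 2 probe sets. Pgam1, phosphoglycerate mutase, lay at 11.65 to 11.97 on Matrigel and 11.98 to 12.42 on Instigator arrays (difference 0.35, SE 0.13). Pgk1, phosphoglycerate kinase, lay at 11.45 to 11.69 and 11.71 to 12.01 (difference 0.23, SE 0.10). For Pgam1 and Pgk1 the groups only just separated. Ldha, which turns pyruvate into lactate, differed by 0.54 (SE 0.22) with overlap.

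Mitochondria import fatty acids bound to carnitine, and 2 genes of this import separated the groups at their brightest probe sets. Slc25a20, the carnitine-acylcarnitine carrier of the inner membrane, measured 9.66, 9.38, 9.71 and 9.40 on Matrigel arrays and 9.91, 9.90, 9.92, 9.89 and 9.89 on Instigator arrays. Its Instigator mean was 9.90 ± 0.01 (SD, n = 5) and its Matrigel mean 9.54 ± 0.18 (SD, n = 4). The difference was 0.36 (SE 0.08) with all arrays and 0.42 without the 2. Cpt1a, the outer membrane transferase and rate-limiting step, measured 9.56, 9.50, 8.06 and 9.45 on Matrigel and 10.03, 10.01, 10.21, 10.99 and 9.86 on Instigator arrays at an x_at probe set. The difference was 1.08 (SE 0.29), and 0.52 without the 2 arrays, which held the lowest and the highest value. At the dimmer Cpt1a set without the x_at suffix it was 0.70 (SE 0.21), and 0.68 without the 2 arrays. The groups overlapped there, with Matrigel 3 the highest of its group at 7.71 and Instigator arrays at 7.56 to 8.67. Over the 21 genes of the shuttle and of fatty acid oxidation, 13 were higher, with a median of 0.03 that was 0.10 without Matrigel 3 and 0.01 without Matrigel 2. Without Instigator 4 and Matrigel 3 it was 0.06, with 16 of 21 higher. With all arrays 2 of the 21 reached an unadjusted p under 0.05, Slc25a20 and Cpt1a.

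Cytosolic tRNA synthetases, which charge tRNAs with amino acids, lay higher for 14 of 18 measured members, with a median of 0.14, 4 at an unadjusted p under 0.05 and 0.11 without the 2 arrays. Gars, glycyl-tRNA synthetase, measured 9.26, 9.17, 9.18 and 9.30 on Matrigel arrays and 9.66, 9.38, 9.59, 9.94 and 9.57 on Instigator arrays. The groups did not overlap, and the difference was 0.40 (SE 0.11, 1.32-fold) with all arrays and 0.31 without the 2. Aars, alanyl-tRNA synthetase, differed by 0.46 (SE 0.16), but by 0.15 without the 2 arrays. Matrigel 3 lay at 7.49 and the other Matrigel arrays at 8.25 to 8.41, and its second probe set lay the other way, at -0.17 (SE 0.12). Nars and Yars, the asparaginyl and tyrosyl enzymes, differed by 0.27 (SE 0.13) and 0.28 (SE 0.15). Synthetase genes are known targets of the ATF4 branch of the amino acid response, which acts through the word TGATGNAA. That word was found on either strand in 5 of the 11 synthetase genes with a promoter window (45.5%), against 4.51% of all 27025 genes. The 5 genes, Aars, Gars, Iars, Tars and Yars, were all higher, with a median difference of 0.29 (0.15 without the 2 arrays), and of the 6 without the word 4 were higher, with a median of 0.08 (0.10 without the 2 arrays). Here too a match is not evidence of binding, and a role of ATF4 was not tested. The window of Gars (chr6:55037751-55038050 on the plus strand) is shown with its word in capitals, read here as the reverse complement, because Gars separated the groups.
Gars: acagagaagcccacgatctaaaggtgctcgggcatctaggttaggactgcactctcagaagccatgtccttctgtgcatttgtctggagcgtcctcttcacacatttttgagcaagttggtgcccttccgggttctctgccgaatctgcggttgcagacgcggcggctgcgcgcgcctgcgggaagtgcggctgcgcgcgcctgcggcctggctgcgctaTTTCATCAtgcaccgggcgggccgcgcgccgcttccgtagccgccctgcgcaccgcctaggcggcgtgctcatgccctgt
The wider list of amino acid stress response genes had 11 of 21 members higher, with a median of 0.06. At an unadjusted p under 0.05, 1 of the 21 was higher and 2 were lower by limma. The groups did not overlap for 2 members, both lower, and for 0 higher members.

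Stromal genes as a list had no common direction, though single genes stood out, while most megakaryocyte and platelet genes lay lower. Sparc, a secreted matrix protein of stromal and bone cells that platelets also store, measured 8.24, 7.99, 8.54 and 8.41 on Matrigel arrays and 7.47, 7.57, 7.01, 7.58 and 7.78 on Instigator arrays. Its groups did not overlap, with a difference of -0.82 (SE 0.20, 1.76-fold) and of -0.76 without the 2 arrays. The 27 stromal, bone and matrix genes as a list had a median of -0.02 with 16 lower, or 0.05 after centring, and the matrix glycoprotein Fn1, fibronectin, lay in the other direction at 0.63 (SE 0.20). Of 16 megakaryocyte and platelet genes 13 were lower, with a median of -0.21 that was -0.09 without the 2 arrays. The list was dim, with means of 6.19 to 6.53 on Matrigel arrays, highest on Matrigel 3, and 5.99 to 6.21 on Instigator arrays. The platelet chemokine Pf4 lay at 7.38 to 7.99 on Matrigel arrays and at 4.84 to 7.38 on Instigator arrays, and its difference of -1.25 (SE 0.48) was -0.85 without Instigator 4, the array at 4.84. Ppbp, its neighbour chemokine in platelets, differed by -0.62 (SE 0.36) with overlap.

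Genes outside these programmes also separated the groups. The lowest p of the comparison belonged to Polr3f, a subunit of RNA polymerase III, which makes tRNA and 5S ribosomal RNA. It measured 7.44, 7.81, 7.75 and 7.62 on Matrigel arrays and 7.06, 7.26, 7.05, 7.06 and 6.74 on Instigator arrays. The difference was -0.62 (SE 0.11, 1.54-fold, 95% confidence interval -0.84 to -0.40), and -0.60 without the 2 arrays, while the 17 polymerase III genes as a list had a median of -0.01, or 0.07 after centring. Wrn, the RecQ helicase lost in Werner syndrome, lay at 8.93 to 9.05 on Matrigel and 8.46 to 8.74 on Instigator arrays (difference -0.40, SE 0.08), but the mean of its 3 probe sets differed by -0.11. Prcp, a lysosomal carboxypeptidase, differed by -0.67 (SE 0.17) and the mRNA export factor Thoc2 by -0.79 (SE 0.20), and both were lowest on Instigator 4. The mean of the 2 Thoc2 probe sets differed by -0.47. Vhl, which targets hypoxia-inducible factor for degradation, was dim, at 5.67 to 6.18 on Matrigel and 5.28 to 5.52 on Instigator arrays (difference -0.44, SE 0.11). Hmox1, the haem oxygenase of macrophages, lay at 8.34 to 8.71 and 6.84 to 8.32, with Instigator 3 the lowest (difference -0.68, SE 0.23).

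In the other direction, Lyst, the lysosomal trafficking regulator, lay at 8.57 to 8.84 on Matrigel and 8.93 to 9.50 on Instigator arrays (difference 0.48, SE 0.12), although the mean of its 3 probe sets differed by 0.13. Zyx, the focal adhesion protein zyxin, differed by 0.43 (SE 0.12), Gyg, the primer of glycogen synthesis, by 0.37 (SE 0.11), and Sgsh, a lysosomal sulphatase of heparan sulphate, by 0.51 (SE 0.15), or 0.24 as the mean of its 2 probe sets. Tnfrsf1a, the main receptor for tumour necrosis factor, lay at 8.46 to 9.11 and 9.15 to 9.58 (difference 0.43, SE 0.16). Cry1, a repressor of the circadian clock, differed by 0.54 (SE 0.17), with Instigator 5 at 8.61 just above the highest Matrigel array. For each of these 6 genes the groups did not overlap, and without the 2 arrays the differences lay between 0.30 and 0.36.

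Leaving out Instigator 4 and Matrigel 3 changed which genes stood out. Of 22626 probe sets 1 was then called by limma (0.00442%), and 461 genes lay higher (3.72%) and 322 lower (2.6%) at an unadjusted p under 0.05. The called probe set was the dimmer of the 2 brightest of Scd2, a stearoyl-CoA desaturase that makes monounsaturated fatty acids, and it was chosen after its values were seen. It measured 9.13, 9.11, 9.46 and 8.99 on Matrigel arrays and 8.33, 8.43, 8.4, 6.35 and 8.48 on Instigator arrays. Without the 2 arrays the difference was -0.67 (limma adjusted p = 0.0109), and with all arrays it was -1.18 (SE 0.34, limma adjusted p = 0.439). The brightest Scd2 set differed by -0.30 (SE 0.11) with all arrays and by -0.22 without the 2, and the third by -0.34 (SE 0.35) and 0.20. Non-instigator arrays lay at 8.41 to 8.61 at the called set, close to the other Instigator arrays.

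**Figure D4:**
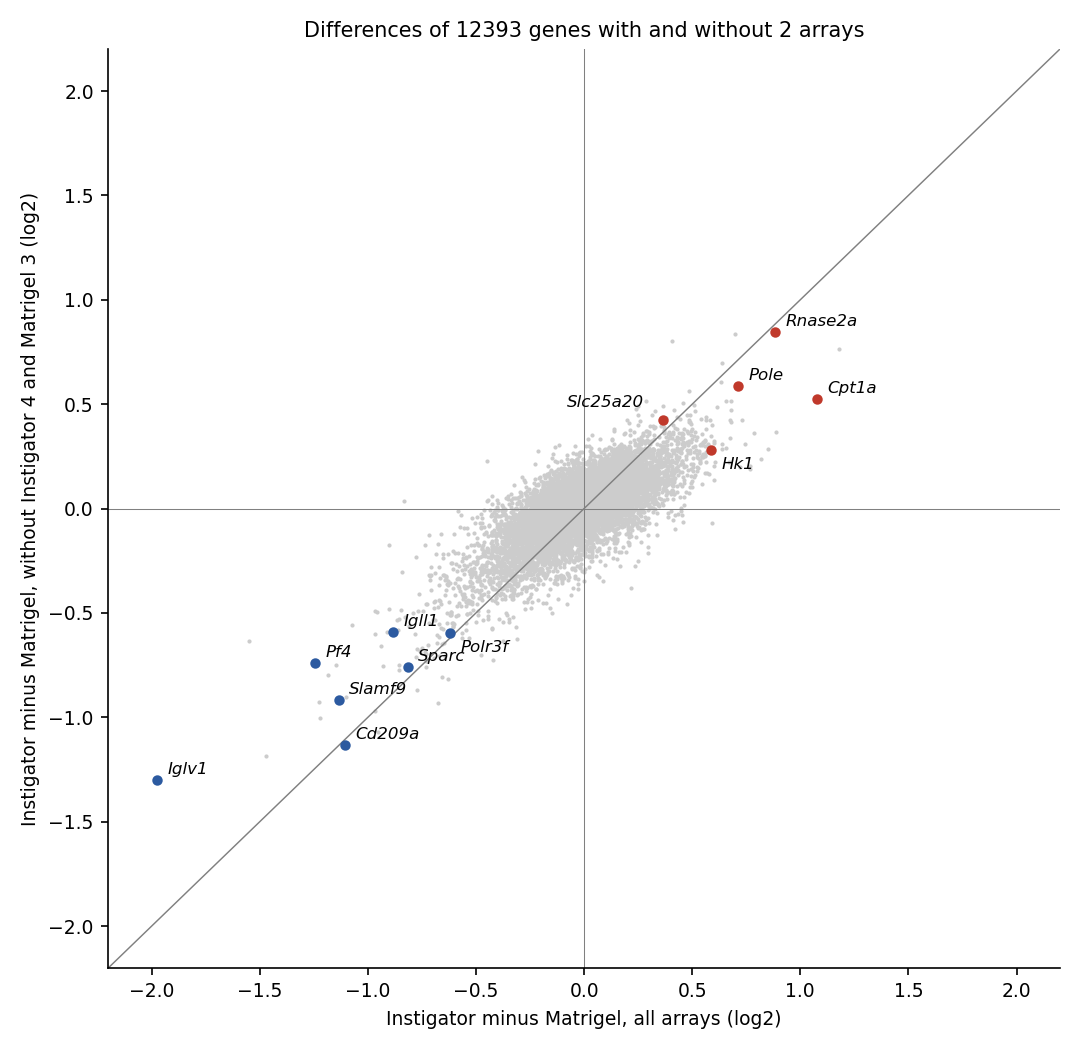
Each point is 1 of 12393 genes, with the log2 difference Instigator minus Matrigel over all 9 arrays on the horizontal axis and without Instigator 4 and Matrigel 3 on the vertical axis, and the diagonal marks equal values. Cd209a and Rnase2a lie near the diagonal, while Iglv1, at -1.97 and -1.30, and Cpt1a, at 1.08 and 0.52, lie closer to 0 without those arrays.

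Grn, the secreted growth factor granulin for which the study of this series is known, measured 10.66, 10.48, 10.19 and 10.5 on Matrigel arrays. It measured 10.45, 10.69, 10.67, 10.69 and 10.73 on Instigator arrays. Instigator 1 lay below 3 of the 4 Matrigel arrays, and the other 4 Instigator arrays above all of them. The difference was 0.19 (SE 0.11, two-sided exact permutation p = 0.111, where 126 splits allow a smallest p of 0.00794). It was 0.10 without Matrigel 3, the lowest Matrigel array, and 0.09 (SE 0.10) without both arrays that stood apart. Lysosome genes, a class to which the precursor of granulin is trafficked, were higher for 17 of 28 members, with a median of 0.11 (0.05 without the 2 arrays). With each gene taken as the mean of its probe sets, the lysosome median was 0.02. Kit, whose product the sorted cells were to lack, measured 8.05, 7.41, 7.44 and 7.18 on Matrigel and 7.36, 7.59, 7.93, 7.43 and 7.59 on Instigator arrays. Its groups overlapped throughout, with a difference of 0.06 (SE 0.22, two-sided exact permutation p = 0.762) that was -0.06 without Matrigel 4 and -0.11 as the mean of its probe sets.

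The second tumour group gave no called difference from the first. Instigator minus Non-instigator gave 0 called probe sets of 22626 (0%, smallest limma adjusted p = 0.813), with 507 higher and 761 lower at an unadjusted p under 0.05. Comparisons that share a group of arrays are not independent, so their values are given side by side only. The 118 lymphoid and dendritic genes had a median of -0.06 for Non-instigator minus Matrigel and of -0.20 for Instigator minus Non-instigator, with 93 lower in the latter. For the 98 replication, nucleotide and mitosis genes these medians were -0.04 and 0.11. Over all genes they were -0.04 and 0.03. The Non-instigator arrays enter both medians of each pair, with opposite sign. Polr3f lay at 7.44 to 7.66 on Non-instigator arrays, above every Instigator array, with a difference of -0.50 (SE 0.10, limma adjusted p = 0.813) between the tumours. Wrn lay at 8.79 to 9.01 there, also above every Instigator array (difference -0.31, SE 0.08), and Dnmt1 at 11.45 to 11.68, below every Instigator array (difference 0.39, SE 0.10). Slc25a20 lay at 9.83 to 10.04 on Non-instigator arrays and differed by 0.01 (SE 0.08) between the tumours, and Vhl lay at 5.27 to 5.75 and differed by -0.01 (SE 0.11). Mmp8, Il1r2 and Sox4 likewise differed by 0.07 (SE 0.14), 0.06 (SE 0.19) and -0.09 (SE 0.14) between the tumours. On the lymphoid lists Non-instigator 1 and Instigator 3 were the lowest arrays of their groups, with mean levels of 8.29 and 8.07 for the B cell receptor list and 7.16 and 7.06 for the classical dendritic list, while the highest Non-instigator array lay at 9.43 and 7.82, against highest Matrigel values of 9.22 and 7.82.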

How the data were processed

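RNA of sorted mouse marrow cells was measured on 14 Affymetrix arrays, 4 Matrigel, 5 Instigator and 5 Non-instigator. The deposited values are linear intensities per probe set that the authors made with RMA in the affy package of R 2.11.0, per the submitters' processing notes. RMA shares information across arrays, so 1 poor array can shift values of the others. Here log2 of the 22626 probe sets left after removing 64 control sets was fitted with limma 3.58.1 (R 4.3.3), all 14 arrays in 1 model with group as the factor, and p-values were Benjamini-Hochberg adjusted over all sets. A gene was its brightest probe set among the 20380 with 1 symbol in GEO's platform annotation (691 sets had several symbols and 1555 none, and 20351 symbols were found in RefSeq), which gave 12393 genes. The number of arrays limits the precision. The fit was tested on simulated data.

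Genes were named by rank: Grn and Kit, per direction the 15 lowest p-values and the 10 largest differences among genes whose groups did not overlap, the 8 lowest p-values without Instigator 4 and Matrigel 3, and the leading members of each of 49 gene lists. The members and lists were chosen with earlier results of these data known. Alternatives covered scaling, dim probe sets, left-out arrays, array weights and blocking on replicate number. Same-numbered deviations correlated by 0.12, 0.27, 0.05 and -0.13, so the numbers were not taken as pairs. Promoter sequences are from RefSeq, GRCm38.p6, and figures were drawn with matplotlib 3.10.9 in Python 3.11.15.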

Additional observations from a re-analysis of the deposited data

Results flagged for a closer look

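In 22 of 254 groups of values, covering the genes and list means described, 1 array stood apart from the rest of its group by Dixon's 95% criterion. For independent, normally distributed values chance sets apart about 1 group in 20, and here it was 8.66%. The groups share arrays, lists share members, and many genes were named by rank. No excess over chance can therefore be read from that share. Of the 22 values set apart, 7 were from Matrigel 3 and 5 from Instigator 4. Their cause was not tested.

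Matrigel 3 lay high for Igll1 (10.75, others 9.92 to 10.06), Lef1 (6.10, others 5.32 to 5.38) and Pou2af1 (11, others 10.84 to 10.86). It lay low for Cpt1a at its brightest set (8.06, others 9.45 to 9.56) and Hdc (8.42, others 9.11 to 9.16). At the Cpt1a set without the x_at suffix it was the highest Matrigel array, at 7.71. Its mean level of cytosolic heat shock genes was 10.03 and of secreted growth factor and matrix remodelling genes 5.96, against at most 9.64 and 5.73 on the other Matrigel arrays.

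Instigator 4 lay high for Hk1 (8.80, others 7.52 to 7.75), Mcm2 (10.68, others 9.49 to 9.79) and the mean of stromal, bone and matrix genes (6.49, others 6.34 to 6.38). It lay low for the dimmer Scd2 set (6.35, others 8.33 to 8.48) and the mean of cytosolic ribosomal protein genes (11.81, others 12.18 to 12.26).

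The other 10 values came from 6 arrays. Matrigel 2 was high for Spib at 11.71, Vpreb3 at 8.89 and the mean of NK cell genes at 9.12, and low for Nars, which it gave at 9.82 against 10.03 to 10.06. Matrigel 1 was high for Dnmt1 at 11.72. Instigator 1 was high for Mmp8 at 10.35 and low for Grn at 10.45, where the other 4 Instigator arrays lay at 10.67 to 10.73. Clec10a stood at 8.35 on Instigator 2, Tnfrsf17 at 7.66 on Instigator 5, and the mean of secreted growth factor genes at 5.70 on Instigator 3.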

How the results depend on the processing

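Without Instigator 4, alone or together with Matrigel 3, limma called 1 probe set, and leaving out 1 array at a time gave 0 to 1. Probe sets higher at an unadjusted p under 0.05, 740 as reported, numbered 444 with the 9 arrays alone, 433 among brighter sets, 1298 after quantile normalization, 1772 after centring and 1126 with array weights. Lower sets, 1584 as reported, numbered 958 among brighter sets, 961 after centring and 768 without both arrays, and 835 (without Matrigel 3) to 1923 (without Matrigel 1) with 1 array left out. Centring moved the median difference of all probe sets from -0.03 to 0.05. Fewer arrays separate more easily by construction. The probe sets with every Instigator array above every Matrigel array, 230 as reported, numbered 149 among brighter sets, 411 after quantile normalization, 575 after centring, 982 without both arrays, 398 with Instigator 5 moved to the PC3 group, and 316 to 638 with 1 array left out. The probe sets with every Instigator array below every Matrigel array, 379 as reported, numbered 242 after centring, 647 without both arrays, 747 with Instigator 5 moved, and 483 to 906 with 1 array left out. The Kit difference, Instigator minus Matrigel, reversed to -0.11 as the mean of its probe sets, -0.058 without Matrigel 4 and -0.031 without Instigator 3, within -0.058 to 0.23 over left-out arrays. With the replicate block, 0 sets were called, with 862 higher and 1935 lower at that p. Of the 4 Instigator arrays with a same-numbered Matrigel array, 1 matched that array best. List medians near 0 (NK, monocyte, stromal, RNA polymerase III) changed sign with centring or a left-out array, while the dendritic, MHC class II, B lineage, plasma cell, T cell, granule, replication, glycolysis and synthetase medians kept theirs in every setting. Besides Kit, none of the 1420 alternative differences of 75 further named genes changed direction (Grn, at 0.09 to 0.26, did not either), and 21 of 931 alternative list medians moved beyond the spread between arrays. The cause of these changes was not tested.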
